A study of Mus musculus with 12 samples.

Results

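The nuclear factor I genes *Nfia*, *Nfib*, *Nfic* and *Nfix*, the ETS factor gene *Etv1* and the myocyte enhancer factor 2 genes *Mef2a*, *Mef2c* and *Mef2d* encode transcription factors that act in maturing granule neurons of the cerebellum. They were chosen by gene symbol, and all 8 were found among the 24091 genes measured. The comparison asked how these factors differed between medulloblastoma, a tumor that can arise from granule cell progenitors, and cerebellum. RNA sequencing of bulk mouse tissue gave 12 samples in 4 groups of 3. The tumors and the adjacent cerebella came from the same mice, GB344, GB359 and GB370, of genotype *Brca2-mut;Trp53-mut*. The tumor-free controls were cerebella of 3 *Brca2-mut;Trp53-WT* mice, GB361, GB508 and GB512, and of 3 *Brca2-WT;Trp53-mut* mice, GB517, GB519 and GB520. Brca2-mut is a deletion of exons 3 and 4 made in the central nervous system by Cre under the human GFAP promoter, and Trp53-mut is a knockout in every tissue. The labels name no treatment, and the controls are described as age-matched, but the ages of these mice and the Cre status of the Brca2-WT mice are not given in the sources used here. Every group carried a mutation in at least 1 of these genes, so tumors and controls differed in genotype as well as in tissue.

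Granule cell progenitors divide in the outer layer of the young cerebellum under Sonic hedgehog signaling, and then leave the cell cycle, migrate inward and form dendrites and synapses. NFI proteins bind DNA as dimers and help to switch on late genes of this program, among them the GABA-A receptor subunit gene *Gabra6*, and ETV1 takes part at several of the same genes as activity of the neuron changes. MEF2 proteins respond to calcium and to kinases, recruit or release class IIa histone deacetylases, and control genes of the synapse. NFI genes are also active in glia, so their level in bulk tissue is a sum over several cell types.

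The values are TPM, a transcript abundance that is scaled for transcript length and library size. A gene’s value adds up its transcripts, and read depth is unknown. Each sample summed to between 999793 and 999876 TPM, and 15088 to 15803 genes reached 1 TPM. *Trp53* was at 47.1 to 49.4 TPM in *Brca2-WT;Trp53-mut*, above the 33.1 to 37.2 TPM in *Brca2-mut;Trp53-WT*, and *Brca2* was at 3.24 to 4.40 and 3.396 to 3.79 TPM. Sums over transcripts do not resolve the deleted exons and do not check these genotypes, which are given as labelled. Granule cell progenitor markers (5 genes) summed to 1147 to 1723 TPM in tumors, 400.5, 274 and 48.4 TPM in the adjacent cerebella of GB344, GB359 and GB370, and 19.5 to 38.4 TPM in controls. The tissue labelled adjacent in GB344 and GB359 therefore held more progenitor marker RNA than that in GB370. Some log2 fold changes against adjacent cerebellum are also given without these 2 samples, which leaves GB370 as the only adjacent sample. In bulk tissue, fewer cells of a type and less RNA per cell cannot be told apart.

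Sequence before a RefSeq start of 3 members is shown because *Nfia* rose and *Etv1* fell in tumors, and *Mef2d* held the most NFI cores, 2, of any window of a member. The sequences are the 250 bases before a RefSeq start in the GRCm38.p6 build, on the + strand, with matches to the searched motifs in capitals. The *Nfia* window (chr4:97581693-97581942) lies within the span of a GENCODE transcript of *E130114P18Rik*, outside its exons. It is also inside the RefSeq span of *Nfia* (chr4:97578066-98118876), so it precedes a later start and not the first base of the gene. The *Etv1* window (chr12:38779832-38780081) lies in an intron of a longer GENCODE transcript of *Etv1*. A second *Etv1* window (chr12:38783461-38783710), which overlaps an exon and is not shown, holds 1 NFI core. The *Mef2d* window (chr3:88142122-88142371) overlaps no GENCODE transcript but also lies inside the RefSeq span of its gene (chr3:88141941-88172091).
Nfia: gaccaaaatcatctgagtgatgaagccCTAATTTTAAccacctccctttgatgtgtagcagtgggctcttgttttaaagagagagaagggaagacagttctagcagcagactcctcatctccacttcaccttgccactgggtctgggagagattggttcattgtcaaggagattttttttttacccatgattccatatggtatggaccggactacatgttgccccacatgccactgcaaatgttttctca
Etv1: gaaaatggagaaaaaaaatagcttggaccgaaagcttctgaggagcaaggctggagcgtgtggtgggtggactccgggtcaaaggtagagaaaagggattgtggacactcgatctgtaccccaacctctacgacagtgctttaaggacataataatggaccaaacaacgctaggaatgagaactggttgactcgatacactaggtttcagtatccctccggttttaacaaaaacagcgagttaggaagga
Mef2d: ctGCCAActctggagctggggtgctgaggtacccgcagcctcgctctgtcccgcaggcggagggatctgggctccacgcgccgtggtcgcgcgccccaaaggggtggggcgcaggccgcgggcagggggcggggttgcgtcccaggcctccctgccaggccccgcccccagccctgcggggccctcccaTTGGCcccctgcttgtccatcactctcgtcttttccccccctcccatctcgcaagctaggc
The capitals in the *Nfia* sequence mark a MEF2 site, at positions −223 to −214 from the start. This was the only MEF2 site in 13 windows of the 7 members that matched the RefSeq table, *Nfia*, *Nfic*, *Nfix*, *Etv1*, *Mef2a*, *Mef2c* and *Mef2d*, against 2.92% of all 32851 windows. The capitals in the *Mef2d* sequence mark the NFI core TTGGC, at positions −248 to −244 on the opposite strand, where the shown strand reads GCCAA, and at −61 to −57 on the shown strand. This core was in 5 of the 13 windows of members and in 41.5% of all windows. Both strands were also searched for the full NFI site, which is TTGGC, 5 bases of any kind and GCCAA and so contains the core, for the ETS core CCGGAAG and for the GLI site GACCACCCA, which were in 0.0365%, 6.91% and 0.225% of all windows. None of these 3 was in a window of a member. A match is a string of letters, and binding was not measured.

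Of the 8 genes, 2 were called higher in tumors than in the 6 control cerebella, *Nfia* and *Nfib*, and 3 were called lower, *Etv1*, *Mef2a* and *Mef2c*. Calls needed an adjusted p under 0.01 by limma and a log2 fold change of 1 or more in either direction. The p threshold alone was passed by 7 of the 8, all but *Nfix*, and by 61.1% of tested genes. Of all 16241 genes tested, 35.9% were called, 14.4% higher and 21.5% lower. All 8 members had groups that did not overlap, as did 64.0% of all tested genes, so the share of members that differ is read only against this wide background. The median log2 fold change was −0.90 over the members and −0.11 over all tested genes.

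**Figure D1:**
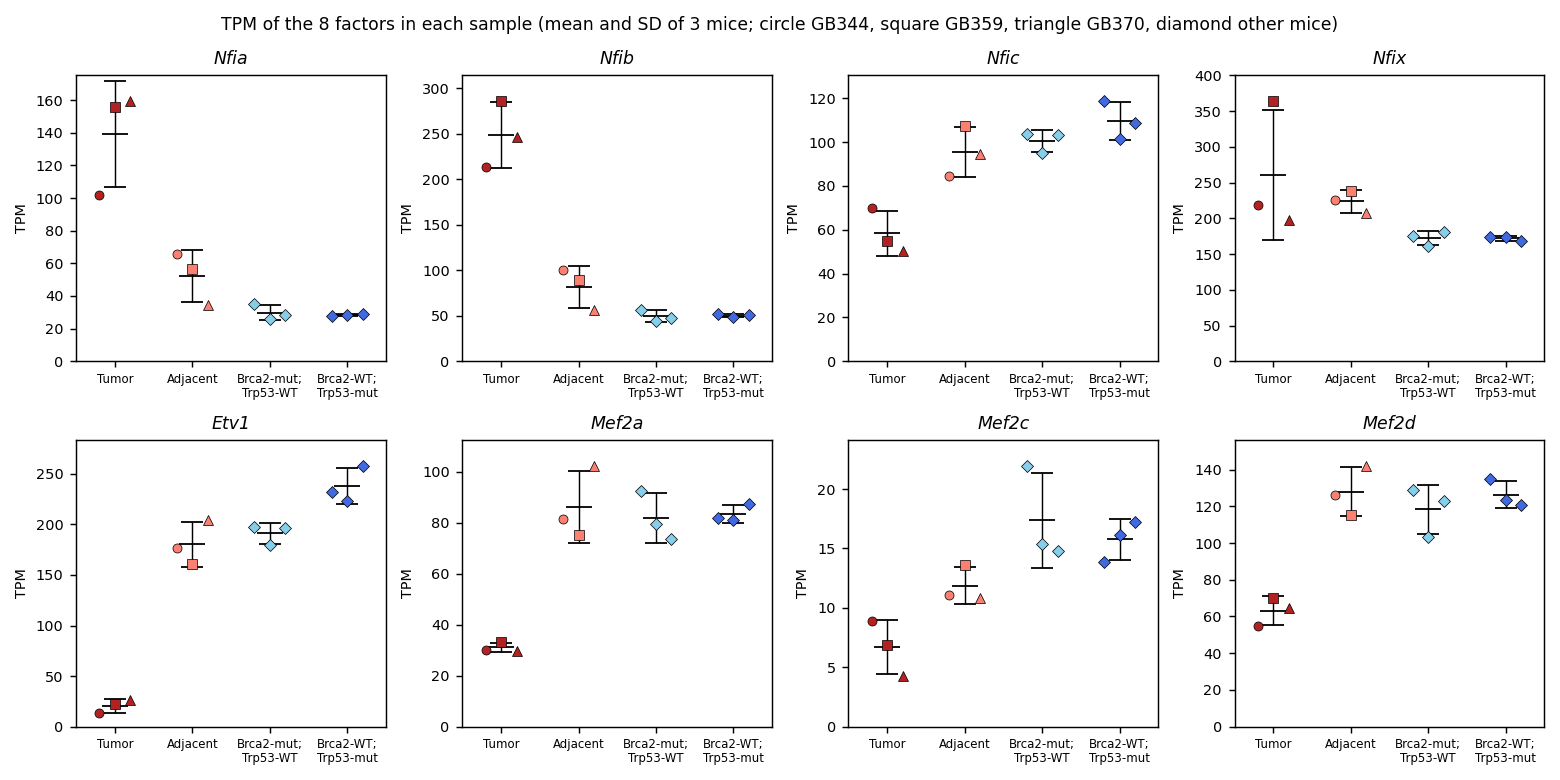
TPM of the 8 factors on linear axes from 0, 1 point per sample, with the mean and SD of 3 mice in each of 4 groups. *Nfia* and *Nfib* are highest in the tumors, *Etv1* is at 12.9 to 26.1 TPM in tumors and at 160.7 TPM or more elsewhere, and the adjacent cerebellum of GB370 (triangle) is closest to the controls for *Nfia* and *Nfib*.

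*Nfia* encodes an NFI protein that also promotes the switch of neural precursors to glia. The gene (chr4:97578066-98118876, GRCm38.p6) was at 102, 156 and 159.7 TPM in the tumors of GB344, GB359 and GB370 and at 65.6, 56.4 and 34.5 TPM in their adjacent cerebella. The *Brca2-mut;Trp53-WT* cerebella were at 34.8, 26.2 and 28.0 TPM, and the *Brca2-WT;Trp53-mut* cerebella at 27.9, 28.1 and 29.1 TPM. Every tumor was above every other sample. The adjacent cerebellum of GB370 was within the range of the controls, below GB361 and above the other controls. Mean TPM was 139 ± 32.5 (SD, n = 3) in tumors and 29.0 ± 3.01 (SD, n = 6) in controls. Their log2 fold change was 2.20 (SE 0.15, adjusted p = 3.33e-07, limma). Against adjacent cerebellum the log2 fold change was 1.42 (SE 0.28, adjusted p = 0.00636), and this call was lost with the mouse as a block (adjusted p = 0.0160).

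*Nfib*, whose product works with NFIA in late gliogenesis and neuronal maturation, was also highest in tumors, followed by adjacent cerebellum. The gene (chr4:82290173-82506751) was at 214, 286 and 246 TPM in tumors and at 100.2, 89.7 and 56.0 TPM in the adjacent cerebella of GB344, GB359 and GB370. Controls were at 56.7, 44.3 and 47.9 TPM in *Brca2-mut;Trp53-WT* and at 51.6, 48.5 and 50.5 TPM in *Brca2-WT;Trp53-mut*. The lowest tumor was above the highest of the other 9 samples. Against controls the log2 fold change was 2.29 (SE 0.10, adjusted p = 3.48e-08, limma) and 1.62 against adjacent cerebellum (SE 0.24, adjusted p = 0.00186).

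*Nfic*, the NFI gene best known from tooth root development, went the other way. The gene (chr10:81396191-81431919) was at 69.9, 54.9 and 50.2 TPM in tumors and at 84.4, 107 and 94.7 TPM in adjacent cerebella, in the order GB344, GB359 and GB370. It was at 104, 94.9 and 103 TPM in *Brca2-mut;Trp53-WT* and at 119, 102 and 109 TPM in *Brca2-WT;Trp53-mut*. All 3 tumors were below all 9 cerebella. The log2 fold change against controls was −0.85 (SE 0.11, adjusted p = 4.66e-05, limma), which passed the p threshold and missed the fold minimum. Against adjacent cerebellum it was −0.71 (SE 0.16, adjusted p = 0.0116).

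*Nfix* encodes the NFI protein linked to quiescence and differentiation of neural precursors. The gene (chr8:84704712-84801238) was at 218, 365 and 198 TPM in tumors and at 226, 238 and 207 TPM in the adjacent cerebella of the same mice. *Brca2-mut;Trp53-WT* cerebella were at 175, 161 and 180.4 TPM, and *Brca2-WT;Trp53-mut* cerebella at 174, 174 and 168 TPM. The tumors were above the controls and overlapped the adjacent cerebella, and the tumor of GB359 was far above the other 2. The log2 fold change was 0.54 against controls (SE 0.16, adjusted p = 0.0112, limma) and 0.17 against adjacent cerebellum (95% interval −0.39 to 0.72, adjusted p = 0.579). Without the tumor of GB359 these values were 0.27 and −0.10.

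The 4 NFI genes together came to 706 ± 137 TPM in tumors (SD, n = 3), 453 ± 53.3 in adjacent cerebellum, 352 ± 22.7 in *Brca2-mut;Trp53-WT* and 360.2 ± 10.4 in *Brca2-WT;Trp53-mut*. *Nfib* held 35.4% ± 2.20 of this sum in tumors and 14.1% ± 1.09 and 13.9% ± 0.210 in the control groups. *Nfia* held 19.8% ± 4.06 in tumors and 8.41% ± 0.878 and 7.88% ± 0.350 in controls. The share of *Nfic* was 8.54% ± 2.71 in tumors and 28.6% ± 0.505 and 30.4% ± 1.57 in controls, and that of *Nfix* was 36.3% ± 6.01 against 48.9% ± 1.55 and 47.8% ± 1.45. Tumors thus held more NFI RNA with a different composition, and shares of 1 sum are not independent of each other. Astrocyte and Bergmann glia markers (6 genes) mark cells that also use NFI genes. They summed to 394 to 572 TPM in tumors and to 3029 to 4151 TPM in controls. *Aldoc* alone was at 23.5 to 111 and 1309 to 2146 TPM, and the part of other cell types in its values was not tested. Of the 6 markers, 5 were called lower and *Gfap* was not. Oligodendrocyte markers (4 of 4 called lower) summed to 71.2 to 253 TPM in tumors and to 2684 to 4206 TPM in controls. Of all tested genes, 21.5% were called lower. None of the markers of these lists was at 0 in a sample, and the glial sums moved opposite to *Nfia* and *Nfib*. The part of the glial cells in the values of NFI genes was not tested.

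**Figure D2:**
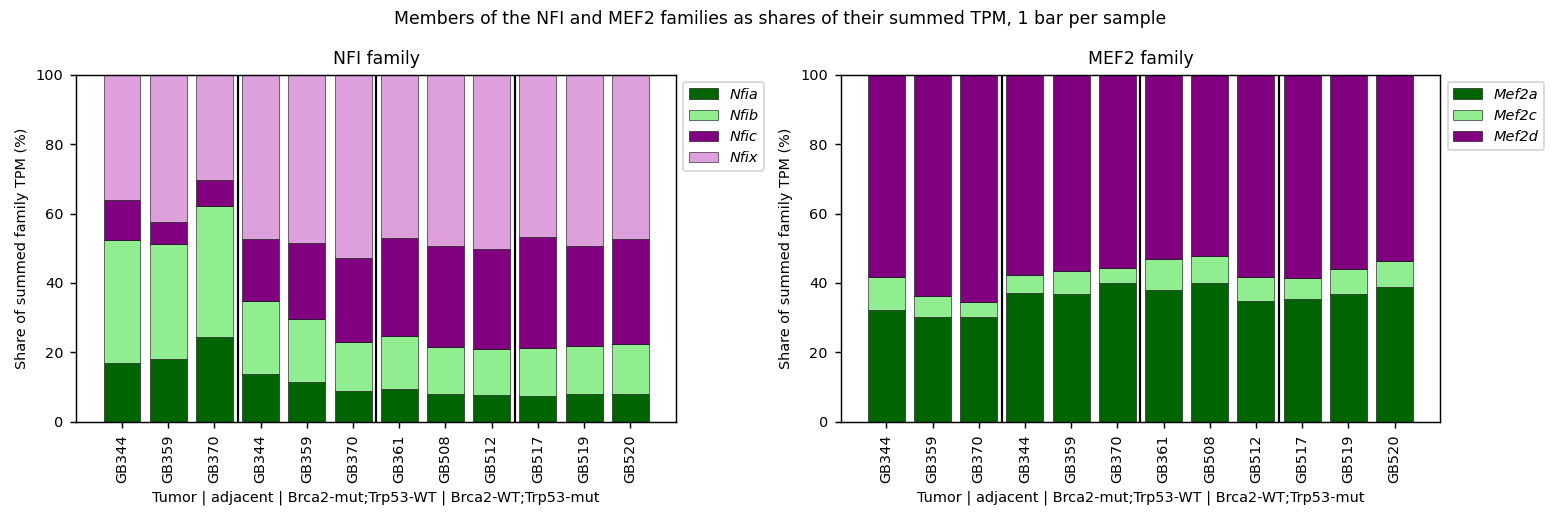
Share of each gene in the summed TPM of its family, in percent, 1 stacked bar per sample; the left panel holds the 4 NFI genes and the right panel the 3 MEF2 genes. *Nfia* and *Nfib* together make up the larger part of the NFI sum in all 3 tumors and the smaller part in all 9 cerebella, while the share of *Mef2a* is lower in the tumors than in the cerebella and that of *Mef2c* overlaps.

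*Etv1*, also called Er81, encodes an ETS factor induced in granule cells at the synaptic stage. The gene (chr12:38780082-38870483) was at 12.9, 21.9 and 26.1 TPM in tumors and at 176, 160.7 and 204 TPM in the adjacent cerebella of GB344, GB359 and GB370. It was at 198, 179.6 and 196 TPM in *Brca2-mut;Trp53-WT* and at 232, 224 and 258 TPM in *Brca2-WT;Trp53-mut*. No tumor came near any cerebellum. Mean TPM was 20.3 ± 6.73 (SD, n = 3) in tumors and 215 ± 28.7 (SD, n = 6) in controls, 10.6-fold higher in controls. Its log2 fold change was −3.38 (SE 0.19, adjusted p = 1.16e-07, limma), and against adjacent cerebellum it was −3.14 (SE 0.25, adjusted p = 2.52e-04).

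*Etv1* had the highest TPM of the 8 genes in all 6 controls and was 7th in all 3 tumors, where *Nfix* or *Nfib* was highest and only *Mef2c* was lower. The ratio of *Nfib* to *Etv1* TPM was 16.5, 13.1 and 9.43 in the tumors of GB344, GB359 and GB370. It was 0.568, 0.558 and 0.274 in their adjacent cerebella and 0.196 to 0.287 in controls. The ratio was lower in the adjacent cerebellum of GB370 than in the other 2. It was within the range of the controls, below GB361 and above the other controls. The other genes of the ETV1 subfamily, *Etv4* and *Etv5*, were not called: *Etv4* was at 24.2 to 37.2 TPM in tumors and 21.5 to 30.9 TPM in controls (log2 fold change 0.23, adjusted p = 0.187), and *Etv5* at 55.7 to 82.8 and 30.3 to 67.5 TPM (0.54, adjusted p = 0.0542).

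*Mef2a* encodes a MEF2 factor that shapes postsynaptic dendritic claws of granule neurons. The gene (chr7:67231163-67376456) was at 30.2, 33.2 and 29.7 TPM in tumors and at 81.3, 75.2 and 102 TPM in the adjacent cerebella of GB344, GB359 and GB370. Controls were at 92.4, 79.4 and 73.6 TPM in *Brca2-mut;Trp53-WT* and at 81.9, 81.0 and 87.4 TPM in *Brca2-WT;Trp53-mut*. The tumors were close to each other and below all cerebella. Against controls the log2 fold change was −1.38 (SE 0.08, adjusted p = 1.94e-07, limma) and −1.43 against adjacent cerebellum (SE 0.15, adjusted p = 4.96e-04).

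*Mef2c* encodes a MEF2 factor of many neurons and also of microglia and endothelium. The gene (chr13:83504017-83667079) had the lowest TPM of the 8 in every sample, 8.89, 6.90 and 4.29 in tumors and 11.1, 13.6 and 10.9 in the adjacent cerebella of the same mice. It was at 22.0, 15.3 and 14.8 TPM in *Brca2-mut;Trp53-WT* and at 13.9, 16.1 and 17.3 TPM in *Brca2-WT;Trp53-mut*. Tumors, adjacent cerebella and controls formed ranges that did not overlap. The log2 fold change against controls was −1.22 (SE 0.20, adjusted p = 2.71e-04, limma), and it was −0.98 without the tumor of GB370, under the fold minimum. Against adjacent cerebellum it was −0.78 (SE 0.26, adjusted p = 0.0428) and not called. Of 6 microglia and macrophage markers, 2 were called higher in tumors than in controls, *Aif1* and *C1qa*, and 4 were not called. They summed to 188 to 276 TPM in tumors and to 77.2 to 150.2 TPM in controls. *C1qa* alone was at 128 to 189 and 31.3 to 82.9 TPM. Endothelial markers (4 genes, 1 called lower, *Flt1*) summed to 84.1 to 136 and 83.02 to 99.8 TPM. Of all tested genes, 14.4% were called higher and 21.5% lower. The part of microglia, macrophages and endothelium in the *Mef2c* values was not tested.

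*Mef2d* encodes the most abundant of the 3 MEF2 factors in these samples and one of the main MEF2 proteins of granule neurons. The gene (chr3:88141941-88172091) was at 54.6, 70.1 and 64.6 TPM in tumors and at 126, 115 and 142 TPM in the adjacent cerebella of GB344, GB359 and GB370. It was at 129, 103 and 123 TPM in *Brca2-mut;Trp53-WT* and at 135, 124 and 121 TPM in *Brca2-WT;Trp53-mut*. All tumors were below all cerebella. The log2 fold change against controls was −0.95 (SE 0.10, adjusted p = 1.25e-05, limma), short of the fold minimum, and −1.03 without the tumor of GB359. Against adjacent cerebellum it was −1.01 (SE 0.14, adjusted p = 0.00163) and called, but −0.83 with median-of-ratios scaling and with quantile normalization, which ended the call.

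The 3 MEF2 genes summed to 101 ± 8.505 TPM in tumors (SD, n = 3), 226 ± 26.3 in adjacent cerebellum, 218 ± 23.3 in *Brca2-mut;Trp53-WT* and 226 ± 4.91 in *Brca2-WT;Trp53-mut*. *Mef2d* held 62.5% ± 3.74 of the sum in tumors and 54.4% ± 3.24 and 56.0% ± 2.44 in the control groups, with ranges that overlapped. *Mef2a* held 30.8% ± 1.201 in tumors and 37.6% ± 2.64 and 37.0% ± 1.64 in controls, without overlap. The remaining MEF2 gene, *Mef2b*, was at 0.82 to 1.71 TPM in tumors and 0.22 to 1.44 TPM in controls and was not called. Markers of neurons were also lower in tumors than in controls, where 21.5% of all tested genes were called lower. Of 6 granule neuron markers 5 were called lower, with *Neurod1* as the exception (0.01). So were 4 of 4 Purkinje cell markers and 3 of 3 inhibitory interneuron markers. Granule neuron markers summed to 381 to 954 TPM in tumors and to 2914 to 3888 TPM in controls, and their part in the values of *Etv1* and of the MEF2 genes was not tested.

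**Figure D3:**
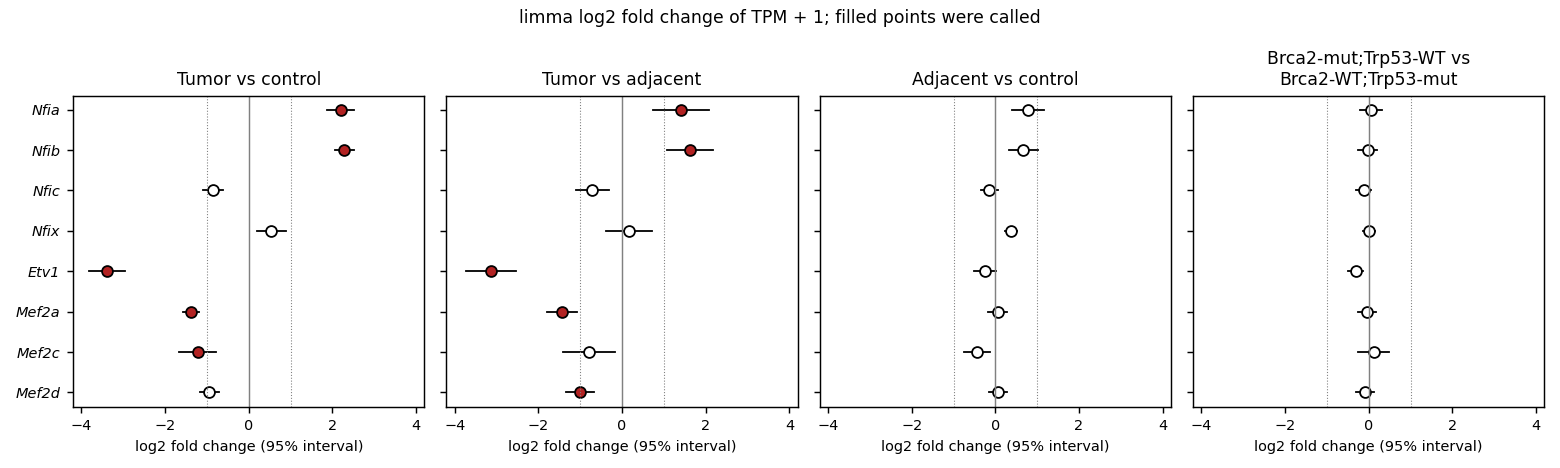
log2 fold change of TPM + 1 by limma for the 8 factors in 4 comparisons, as points with 95% intervals; filled points were called and dotted lines mark a log2 fold change of 1 in either direction. The first 2 panels share the direction of each factor, with the interval of *Nfix* crossing 0 against adjacent cerebellum, and no factor is called in the last 2.

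Against the adjacent cerebellum of the same mice, 2 of the 8 genes were called higher in tumors (*Nfia*, *Nfib*) and 3 lower (*Etv1*, *Mef2a*, *Mef2d*), where 22.8% of 15845 genes were called, 4.76% higher and 18.0% lower. Groups did not overlap for 7 of the 8 genes and for 62.6% of all genes. With the mouse as a block 1 member was higher, *Nfib*, in place of 2, and 701 of all 15845 genes were. The calls over all genes split into 755 higher and 2852 lower, 79.1% lower. With median-of-ratios scaling this share was 65.6% and with quantile normalization 57.8%, while the median over all genes moved from −0.14 to 0.02 and 0.12. Leaving out the adjacent cerebella of GB344 and GB359, a choice made after seeing the progenitor markers, left 1 adjacent sample, GB370. A call lost in that fit cannot be told from the effect of fewer samples, so its log2 fold changes are given without calls. They were 1.95 for *Nfia* and −3.32 for *Etv1*. In the same fit *Mef2d* was at −1.17, *Mef2c* at −0.67, *Nfic* at −0.70 and *Nfix* at 0.28. Without the adjacent cerebellum of GB370, 3 members were called, where 608 genes were called higher and 2301 lower of all 15845 tested. The comparisons with controls and with adjacent cerebellum share the tumors.

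Between adjacent and control cerebellum, limma called none of the 8 genes, with 0.236% of 16091 genes called. Groups did not overlap for 2 of the 8, *Nfix* and *Mef2c*, and for 19.3% of all genes. At an unadjusted p under 0.05 there were 4, *Nfia*, *Nfib*, *Nfix* and *Mef2c*, where 34.5% of all genes passed. *Nfia* was at a mean of 52.2 ± 16.0 TPM (SD, n = 3) in adjacent cerebellum and 29.0 ± 3.01 in controls (log2 fold change 0.78, SE 0.17, adjusted p = 0.0218), and *Nfib* at 82.0 ± 23.1 and 49.9 ± 4.15 TPM (0.67, SE 0.16, adjusted p = 0.0260). These means were carried by the adjacent cerebella of GB344 and GB359, which also held the higher progenitor marker sums. Without GB370 the log2 fold change of *Nfia* was 1.05 and was called, and with GB370 as the only adjacent sample it was 0.25, and 0.17 for *Nfib*. *Nfix* was at 224 ± 15.6 and 172 ± 6.62 TPM without overlap (0.38, SE 0.06, adjusted p = 0.0116), and was above the controls in all 3 adjacent cerebella. *Mef2c* was at 11.9 ± 1.54 and 16.6 ± 2.88 TPM without overlap (−0.44, SE 0.14, adjusted p = 0.0586), and *Etv1* had an interval of −0.51 to 0.02. The part of tumor or progenitor cells in these values was not tested.

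Between the control genotypes, limma called none of the 8 genes, with 0.0578% of 15575 genes called. Groups did not overlap for 1 of the 8, *Etv1*, and for 27.0% of all genes. *Etv1* was the 1 member at an unadjusted p under 0.05, which 20.1% of all genes reached. It was at 191 ± 10.1 TPM (SD, n = 3) in *Brca2-mut;Trp53-WT* and 238 ± 17.8 TPM in *Brca2-WT;Trp53-mut* without overlap, a log2 fold change of −0.31 (SE 0.07, adjusted p = 0.0944, between 0.0822 and 0.694 over 15 alternatives). The other 7 members overlapped, with log2 fold changes between −0.12 and 0.12. The widest interval among them, that of *Mef2c*, ran from −0.26 to 0.49. The series holds no wild-type and no tumor-free double-mutant cerebellum, so this contrast cannot show the part of genotype in the tumor values. The genotypes differ at both *Brca2* and *Trp53*, whose parts cannot be told apart. In *Brca2-mut;Trp53-WT*, choroid plexus markers (4 genes) summed to 872 TPM in GB361, 17.6 TPM in GB508 and 22.3 TPM in GB512. They summed to 3942 to 5158 TPM in *Brca2-WT;Trp53-mut*. Purkinje cell markers (4 genes) summed to 5516 to 6816 TPM and to 4023 to 4356 TPM, also without overlap, and the part of either cell type in these values was not tested.

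Genes reported as targets of NFI and ETV1 in maturing granule neurons were called lower in tumors than in controls for 4 of 7 and higher for 1, where 21.5% and 14.4% of all tested genes were. Their median log2 fold change was −2.22, beside −0.11 over all genes. *Gabra6*, the granule-neuron subunit of the GABA-A receptor, was at 8.11, 26.9 and 22.7 TPM in tumors and at 505 to 670.4 TPM in controls (−5.01, SE 0.29, adjusted p = 1.29e-07, limma). *Grin2c*, the NMDA receptor subunit of mature granule neurons, was at 9.33, 20.7 and 16.9 TPM in tumors and 156 to 279 TPM in controls (−3.78). *Wnt7a*, a secreted signal for mossy fiber synapses, was at 1.47, 4.49 and 3.11 TPM and 37.5 to 49.4 TPM (−3.60). The tumor values of these 3 genes were below all 9 cerebella. *Tiam1*, a Rac activator of dendrite growth, was at 17.6 to 42.0 and 120.1 to 173 TPM (−2.22). *Efnb1*, the gene of the membrane ligand ephrin B1, was called higher, at 15.7 to 18.3 TPM in tumors and 5.74 to 7.67 TPM in controls (1.23, adjusted p = 4.05e-06). *Cdh2*, the N-cadherin gene, was at 74.3 to 79.0 and 50.3 to 58.7 TPM (0.52, under the fold minimum), and *Cntn2*, an adhesion gene of young granule cells, at 77.0 to 116 and 80.6 to 131 TPM (−0.07, adjusted p = 0.730). *Gabra6* is also a granule neuron marker of the list above. Against adjacent cerebellum the same 4 were called lower and none of the 7 higher, where 18.0% and 4.76% of all tested genes were. The median log2 fold change was −2.13 there, and −2.15 with GB370 as the only adjacent sample. *Efnb1* was at 0.93 against all 3 adjacent cerebella and was called higher under 3 alternatives, with a log2 fold change of 1.26 after quantile normalization. limma called none of the 7 between adjacent and control cerebellum (3 at an unadjusted p under 0.05, with 34.5% of all genes) or between control genotypes (2, with 20.1%).

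**Figure D4:**
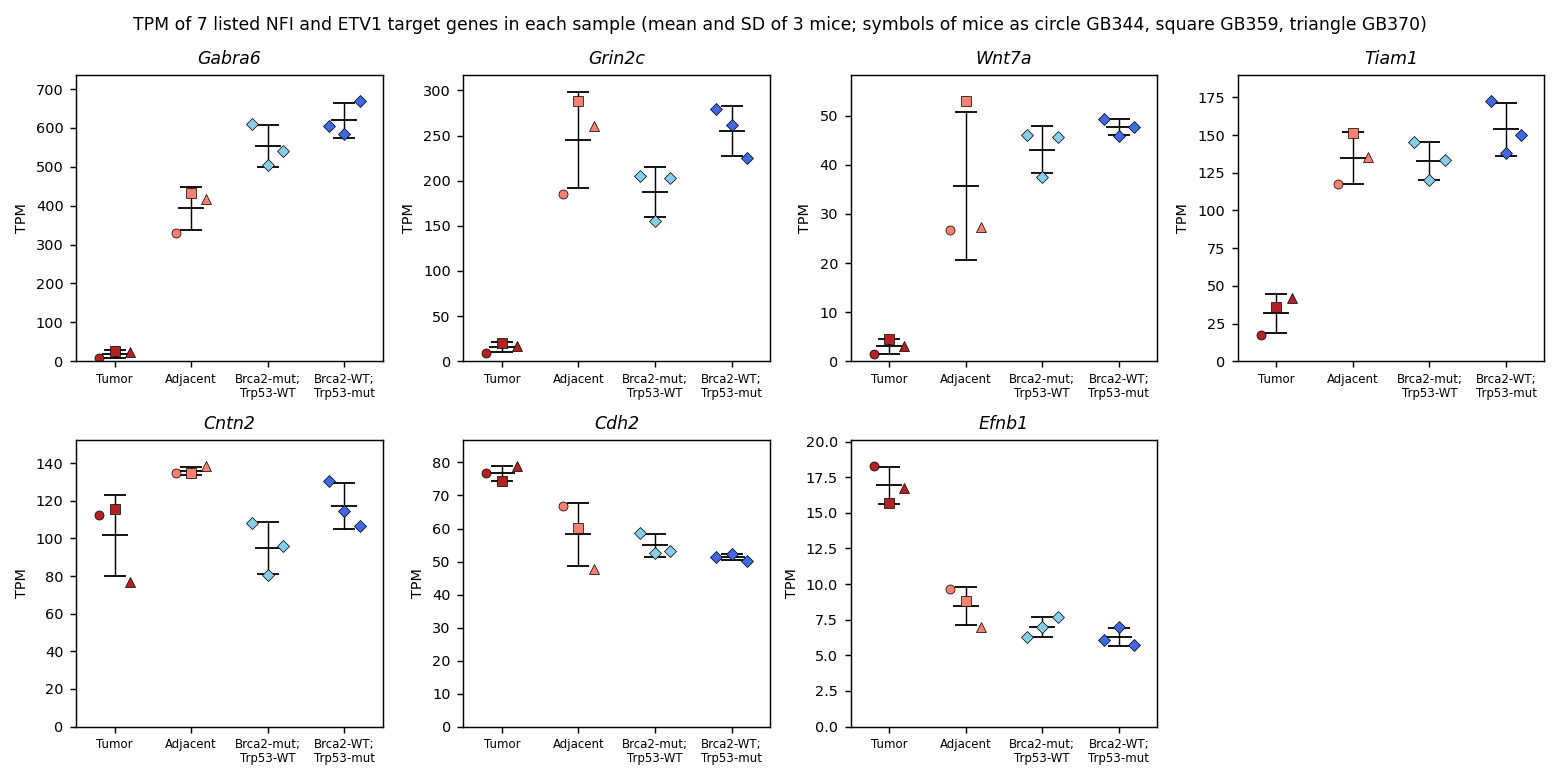
TPM of 7 listed NFI and ETV1 target genes on linear axes from 0, 1 point per sample, with the mean and SD of 3 mice in each group. *Gabra6*, *Grin2c*, *Wnt7a* and *Tiam1* are lower in the 3 tumors than in all cerebella, *Efnb1* and *Cdh2* are higher in the tumors, and *Cntn2* overlaps the controls.

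Among regulators of the timing of this program, REST with TRIM11 and calcineurin with its NFAT targets, 11 of 12 genes were tested. Of these, 1 was called higher and 3 lower in tumors than in controls, where 14.4% and 21.5% of all tested genes were. The share called was near the 35.9% of all tested genes called in either direction. *Nfatc2* was at 1.59 to 2.73 TPM in tumors and 10.001 to 18.1 TPM in controls (−2.12, adjusted p = 2.80e-06, limma), and *Nfatc3* at 22.4 to 35.4 and 10.2 to 12.4 TPM (1.27, adjusted p = 1.31e-05), so these NFAT genes went in opposite directions. The calcineurin catalytic subunit gene *Ppp3ca* was at 85.8 to 149 and 329.8 to 404 TPM (−1.61), and the regulatory subunit gene *Ppp3r1* at 102 to 109 and 231 to 266 TPM (−1.19). *Rest*, the repressor of neuronal genes, was at 2.29 to 2.97 TPM in tumors and 1.85 to 2.59 TPM in controls and was not called (0.20, adjusted p = 0.170). *Ppp3r2*, under 1 TPM in every sample, was not tested. The median over the 11 tested genes was −0.37, beside −0.11 over all genes. Against adjacent cerebellum 2 of 11 were called lower, *Nfatc2* (−1.58) and *Ppp3ca* (−1.33), and none higher, where 18.0% and 4.76% of all tested genes were. Their log2 fold changes were −1.44 and −1.34 with GB370 as the only adjacent sample. The *Ppp3ca* call was lost without the tumor of GB370 or the adjacent cerebellum of GB359 or GB370 (adjusted p of 0.0120 to 0.0163).

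Of 7 cofactors and kinases of MEF2, 2 were called higher and 1 lower in tumors than in controls. Of all tested genes, 14.4% were called higher and 21.5% lower, 35.9% in either direction, and the count is read only against this background. *Mapk7*, the gene of the ERK5 kinase that activates MEF2 proteins, was at 73.8, 84.5 and 90.9 TPM in tumors and 20.7 to 32.6 TPM in controls (1.55, adjusted p = 2.86e-06, limma). *Hdac9* and *Hdac5* encode class IIa deacetylases that repress MEF2 targets: *Hdac9* was at 12.3 to 27.1 and 6.83 to 9.98 TPM (1.12), and *Hdac5* at 56.5 to 77.1 and 118.5 to 151 TPM (−1.04). Their directions differed, and *Hdac4* (−0.45), *Hdac7* (−0.21), *Cabin1* (−0.15) and *Mapk14* (−0.30) were not called. Against adjacent cerebellum 1 of the 7 was called lower, *Hdac5* (−1.02), and none higher, where 18.0% and 4.76% of all tested genes were. *Hdac5* was at −1.11 with GB370 as the only adjacent sample. The *Hdac5* calls lie near the fold minimum and were kept in 16 of 20 alternatives against controls (−1.14 to −0.89) and in 12 of 17 against adjacent cerebellum (−1.12 to −0.84); neither scaling kept them, nor did leaving out the tumor of GB344, and the call against adjacent cerebellum was also lost without the adjacent cerebellum of GB370 (−0.98). *Hdac9* was not called against controls without the tumor of GB359 (0.91) or with either control genotype alone.

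Of 6 neuronal genes known as MEF2 targets, 5 were called lower in tumors than in controls and none higher, where 21.5% and 14.4% of all tested genes were. Their median log2 fold change was −1.70, beside −0.11 over all genes. *Nr4a1*, an early response nuclear receptor gene, was at 5.63, 8.24 and 10.04 TPM in tumors and 30.2 to 82.1 TPM in controls (−2.66, SE 0.28, adjusted p = 1.09e-05, limma). *Arc*, which acts in AMPA receptor removal, was at 2.10 to 3.4 and 13.5 to 17.2 TPM (−2.10), and *Bdnf*, a neurotrophin gene, at 1.51 to 2.16 and 7.07 to 13.4 TPM (−2.02). *Pcdh10*, of a protocadherin in synapse elimination, was at 5.67 to 8.32 and 17.0 to 20.4 TPM (−1.39), and *Homer1*, of a postsynaptic scaffold, at 6.73 to 8.35 and 15.5 to 25.4 TPM (−1.23). *Jun* (0.43) overlapped the controls and was not called. Against adjacent cerebellum *Nr4a1*, *Arc*, *Bdnf* and *Pcdh10* were called lower, where 18.0% of all tested genes were, and *Homer1* was not (−1.01, adjusted p = 0.0107). The *Pcdh10* call was kept in 9 of 17 alternatives (−1.27 to −0.78, adjusted p up to 0.101), and 1 left-out sample, the tumor of GB344 or GB370 or any adjacent cerebellum, ended it. The median log2 fold change of the 6 was −1.30 against all adjacent cerebella, and also −1.30 with GB370 as the only adjacent sample. limma called no gene of the timing, cofactor or MEF2 target lists between adjacent and control cerebellum, with 6, 2 and 4 genes at an unadjusted p under 0.05, or between control genotypes, with 4, 2 and 0; 34.5% and 20.1% of all genes passed that threshold.

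The genes whose pattern over the 12 samples was most like that of each member were found by Pearson correlation of log2(TPM + 1) among 16490 genes. For *Nfib* they were *Xrn2*, *Hnrnpd* and *Rad21* (r of 0.994 to 0.997), for *Nfia* *Bcl2l13*, *Ier5* and *Ska2* (0.99), and for *Etv1* *Rian*, *Trappc10* and *Golga7b* (0.997 to 0.999). For *Nfix*, whose tumors were spread most in TPM, they were *Cmtm4*, *Dhx32* and *Ybx2* (0.95 to 0.97). For *Nfic* they were *B4galnt1*, *Fbxo2* and *Kctd13* (0.98), for *Mef2a* *Fam184b*, *Mamld1* and *Mpzl3* (0.99), for *Mef2c* *Gramd3*, *Ncoa4* and *BC030336* (0.98), and for *Mef2d* *Plekhm3*, *Nrip1* and *Rab11fip3* (0.99). These values share the gap between tumors and cerebellum, and 3 mice gave 2 samples each.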

How the data were processed

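Per the labels, poly(A) RNA of flash-frozen tissue was sequenced with NEB Ultra II libraries. The authors quantified reads with Salmon 0.8.1 on mm10 and deposited gene-level TPM, so read depth is unknown, precision comes from the spread between mice, and 0 sample columns were left unused. Genes at 1 TPM or more in 3 or more samples of a comparison were tested on log2(TPM + 1) with limma 3.58.1 in R 4.3.3 (lmFit, eBayes with trend), and p-values were adjusted by Benjamini-Hochberg over every gene tested. This pseudocount makes fold changes of low genes smaller than their TPM ratios. The study's count test was replaced because the values are TPM. Python 3.11.15, pandas 2.3.3 and matplotlib 3.10.9 did the rest.

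The mouse number in the titles pairs tumor and adjacent cerebellum of 1 animal. Deviations from group means correlated at 0.249, 0.176 and 0.152 within GB344, GB359 and GB370 over 15845 genes, and between −0.163 and 0.018 in other pairs. Centering on group means ties these values to each other, so same-mouse values above 0 force lower ones in other pairs. All 8 members, the genes of the lists and the 3 nearest patterns of each member could be named. A further gene first listed as a MEF2 target is not reported here and enters no count. Members and lists were chosen with earlier results of these data known. Alternatives changed the pseudocount, TPM minimum, scaling, trend, groups in a fit, controls, threshold, mouse block and samples. Symbols, positions and promoters are RefSeq GRCm38.p6, and exon overlap is GENCODE.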

Additional observations from a re-analysis of the deposited data

Results flagged for a closer look

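Among the 6 control cerebella, 43 named genes were examined for a sample that stood apart from the rest by Dixon's criterion, and 4 had one, where chance alone is set to give about 1 in 20. *Nfia* was at 34.8 TPM in GB361, above the 26.2 to 29.1 TPM of the other 5 controls. *Cdh2* was at 58.7 TPM in the same mouse, above 50.3 to 53.3 TPM. In GB508, *Wnt7a* was at 37.5 TPM, below 45.7 to 49.4 TPM, and *Hdac5* at 118.5 TPM, below 138.9 to 150.8 TPM. The entry *Mir6236* held 11.5% of all TPM in GB508 and 6.29% to 8.68% in the other 5 controls. A larger share of 1 entry leaves less TPM for all other genes, and its part in these values was not tested.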

How the results depend on the processing

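Tumor against control called *Nfia*, *Nfib*, *Etv1* and *Mef2a* in all 20 alternatives and *Mef2c* in 19, the exception being without the tumor of GB370 (−0.98). An adjusted p under 0.05 with no fold minimum called 8 members in place of 5. It also called 5165 genes higher and 6408 lower of all 16241 tested. Against adjacent cerebellum 5 members were called, *Nfib* and *Mef2a* in all 17 alternatives, *Etv1* in 16, *Mef2d* in 12 and *Nfia* in 10. Leaving out 1 sample gave 3 to 5 members, where 189 to 913 genes were called higher and 2167 to 2674 lower of all 15845 tested. The main fit called 755 higher and 2852 lower. The 17 include the fit with GB370 as the only adjacent sample, which had fewer samples than the rest. Against adjacent cerebellum *Nfia* lost its call without a TPM minimum (adjusted p = 0.0113). It also lost it without either of the tumors of GB359 and GB370 or either of the adjacent cerebella of GB359 and GB370 (log2 fold change 1.15 to 1.498). The replicate block of the mouse left 1 member called higher in place of 2 and changed no other call of a member. Over all genes it called 701 higher and 2841 lower. *Mef2d* lost its call there with median-of-ratios scaling or quantile normalization (−0.83), without the tumor of GB344 (−0.91) and without the adjacent cerebellum of GB370 (−0.93). Between adjacent and control cerebellum, 0 members were called, and 0 to 1 when 1 sample was left out. The 1 was *Nfia* without the adjacent cerebellum of GB370, where 564 genes were called higher and 22 lower. At an adjusted p under 0.05 with no fold minimum 3 were called, where 1627 genes were higher and 897 lower of all 16091 tested. Between control genotypes 0 were called in all 15 alternatives. No called value changed sign, and 18 uncalled values did. The cause of these changes was not tested. The depth behind TPM is unknown, so counting error of low genes such as *Mef2b* cannot be given.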
